A study of Mus musculus with 32 samples.

Results

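The expression of genes in the mouse inner cell mass (ICM) was compared with that in embryonic stem cells (mESC), over every gene with 5 FPKM or more in either. FPKM is the number of fragments scaled by transcript length and by library size. Of the 24013 genes in the deposited table of stages, 6224 met this minimum, 5659 in ICM, 4510 in mESC and 3945 in both. The ICM group has 3 samples, labelled replicates 1, 2 and 5. They came from blastocysts of superovulated C57BL/6N females mated to DBA/2N males, and the ICM was isolated by immunosurgery, in which antibody and complement lyse the outer layer. The mESC group has 2 samples of R1, a single established line, grown in serum with leukaemia inhibitory factor (LIF). The strain of origin and the culture therefore differ between the groups along with the cell type. Both were measured by RNA sequencing with Smart-Seq2, a protocol for small amounts of polyadenylated RNA, within a series of 32 samples. The table gives 1 value per gene for ICM and 1 for mESC, so no difference has a replicate error and none was tested.

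The ICM is the cluster of cells inside the blastocyst that forms the epiblast, the source of the fetus, and the primitive endoderm, which lines the yolk sac. Embryonic stem cells are derived from it, divide without limit in culture and can form all tissues of the body. LIF acts through STAT3 to hold them in an undifferentiated state, while serum supplies bone morphogenetic proteins and other growth factors. Pluripotency rests on a network of transcription factors around Oct4 (gene Pou5f1), Sox2 and Nanog.

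Over the genes at 5 FPKM or more in both, mESC values were lower than ICM values, so the mESC column was multiplied by 1.39 (0.47 on the log2 scale) to set the median log2 ratio of those genes to 0. The difference is log2(FPKM + 1) in mESC minus that in ICM, which understates the change of low genes. After scaling, 1117 of 6224 genes (17.9%) were at least 1 log2 unit higher in mESC and 1716 (27.6%) at least 1 log2 unit higher in ICM. The median difference was -0.29. Without scaling the counts were 725 (11.6%) and 2527 (40.6%), and the median was -0.72, so 39.4% of the genes that differed were higher in mESC with scaling and 22.3% without it. Scaled differences are given below, FPKM values are as deposited, and "higher" is used from 1 log2 unit upwards.

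**Figure D1:**
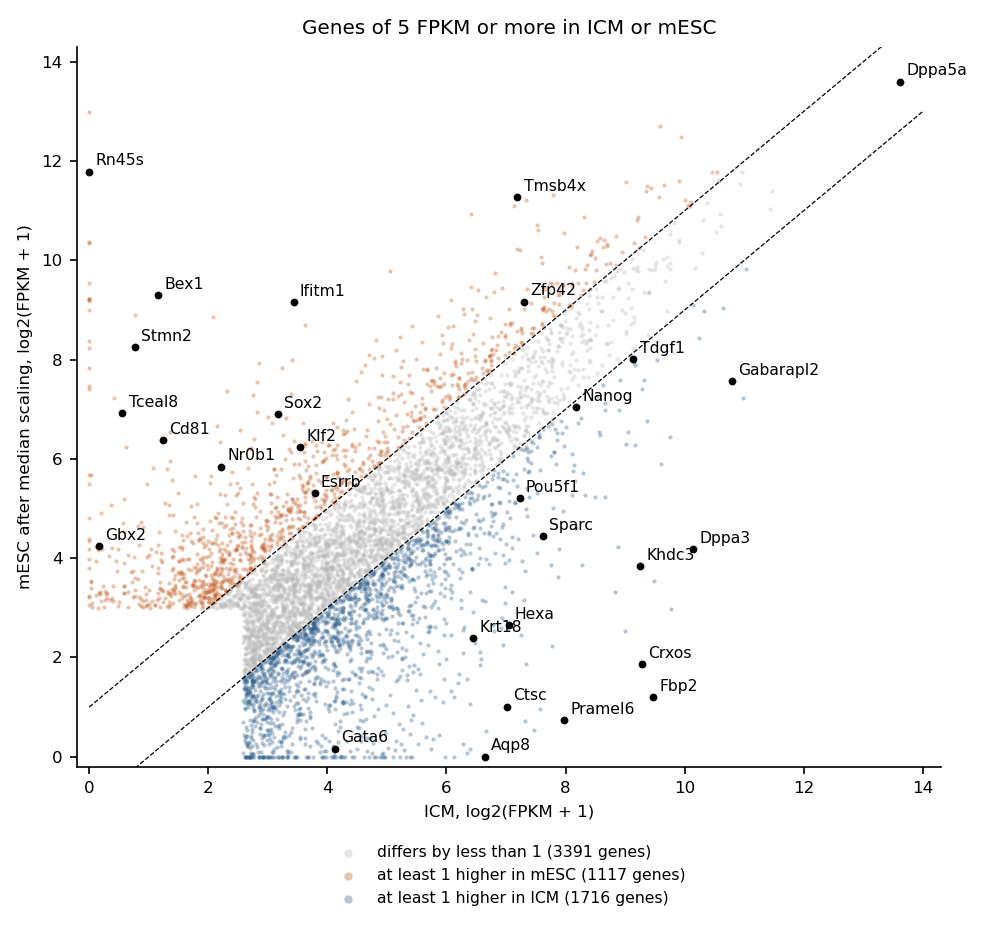
Each point is 1 of 6224 genes, with log2(FPKM + 1) in ICM on the x axis and in mESC after median scaling on the y axis; dashed lines mark 1 log2 unit. The 1117 orange genes lie above the upper line and the 1716 blue genes below the lower one, with Bex1 and Stmn2 far above and Fbp2, Crxos and Aqp8 far below.

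As a yardstick, pairs of control libraries from this series were treated the same way. Among 4 control libraries of 8-cell embryos the share of genes 1 log2 unit or more apart was 7.84% to 12.1% (6 pairs), and among 3 of blastocysts 7.02% to 15.3% (3 pairs). Between ICM and mESC the share was 45.5%, and the median of the 9 pairs was 11.3%. Without scaling it was 52.2%, and the pairs reached 33.5%. The yardstick uses single libraries from other tables, whereas a stage value stands for 2 or 3 samples. Among 1868 genes under 0.3 FPKM in both columns, 199 had the same mESC to ICM ratio of about 2.3 (log2 1.17, in a bin of the histogram whose neighbours mostly held 1 gene). Such steps arise where low values stand for whole fragments, and they put the ICM column at about 2.3 times the depth of the mESC column. Read totals are not known, so a listed 0 carries no limit. Total FPKM was 360432 in ICM and 341732 in mESC.

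The labels were checked against defining markers. All 7 epiblast markers (Pou5f1, Sox2, Nanog, Esrrb, Zfp42, Tdgf1 and Fgf4) were at 5 FPKM or more in both columns. Of 8 markers of fibroblasts and feeder cells, such as Col1a1 and Thy1, none reached 1 FPKM in either column. Of 4 oocyte markers, only Zp3, a gene of the egg coat, reached 5 FPKM in ICM (9.26), and mESC had 2.16.

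The naive pluripotency factors were not shifted as a group. Of 17 measured, 6 were higher in mESC, 6 higher in ICM and 5 differed by less than 1, with a median of -0.52. Pou5f1, the central factor of the network, was 149 FPKM in ICM and 26.1 in mESC (difference -2.01). Nanog was 288 and 94.4 FPKM (-1.13). Sox2, the DNA-binding partner of Oct4, had the opposite order, with 8.03 FPKM in ICM and 86 in mESC (3.74). Members of the core trio thus differed in opposite directions, and these 3 genes kept them without scaling, when Nanog differed by -1.60. Other factors higher in mESC were Klf2, a Krüppel-like factor (10.7 and 53.4 FPKM), Esrrb, an orphan nuclear receptor (12.8 and 27.9), Nr0b1, also called Dax1 (3.63 and 40.7), Zfp42 or Rex1 (156 and 415), and Gbx2, a homeobox gene induced by STAT3 (0.119 and 12.9). Higher in ICM were Tbx3 (19.3 and 2.9 FPKM), Fbxo15 (381 and 64.1), Prdm14 (12.5 and 3.62) and Dppa3. Dppa3, also called Stella, protects the maternal genome from demethylation and was the gene of this list with the largest gap, 1134 FPKM in ICM and 12.3 in mESC (-5.97). A near-identical copy of Dppa3, Dppa3-ps, lies elsewhere in the genome, so its reads may be divided. Klf4, Klf5, Sall4, Tcl1 and Tfcp2l1 lay between -0.60 and 0.87, and Nr5a2 (4.65 and 2.48 FPKM) was under the minimum.

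Few genes of the formative and primed epiblast, the states that follow implantation, reached 5 FPKM, 7 of 20. Tcf15, a transcription factor of cells about to leave the naive state, was 0.0802 FPKM in ICM and 12.9 in mESC. Lin28a (2.2 and 6.29) was also higher in mESC. The Nodal co-receptor Tdgf1 (563 and 185, with a near-identical copy) and the Nodal inhibitor Lefty2 (68.1 and 9.86) were higher in ICM. Otx2 (7.63 and 8.51) and Utf1 (183 and 116) differed by less than 1. Fgf5, a marker of the implanted epiblast, was at 0.232 FPKM in mESC and listed at 0 in ICM.

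Most primitive endoderm genes were higher in ICM. Of 15 measured, 14 were higher in ICM and 1 in mESC, with a median of -2.83 and a range over 12 other settings of -4.72 to -1.29. As 12 of the 15 passed the minimum only through ICM, that count was partly set by the minimum. Over all 26 listed genes, 21 were higher in ICM and 1 in mESC, with a median of -2.05. Between pairs of control libraries, whose order is arbitrary, the median of this list's measured genes went from -0.57 to 2.27. The largest of these was bigger in size than -2.05 and smaller than -2.83. The receptor Pdgfra was 16.2 FPKM in ICM and 0.02 in mESC. Gata6, the factor that sets the lineage apart from the epiblast, was 16.4 and 0.0851 FPKM. Gata4 was 5.44 FPKM in ICM and listed at 0 in mESC. Basement membrane genes, which this lineage makes in quantity, followed, with Sparc at 195 and 15 FPKM, Lamb1 at 30.5 and 0.754 and Col4a1 at 8.34 and 0.159. The basement membrane gene Nid2 was the exception, at 2.74 and 6.86 FPKM. Other members higher in ICM were Srgn (37.7 and 0.345), the endocytic adaptor Dab2 (9.63 and 0.355) and Amn, a subunit of an endocytic receptor (6.49 and 0). The summed level of 6 defining markers was 41.6 FPKM in ICM and 0.422 in mESC, where Gata4 and Sox17 were listed at 0. In these bulk samples fewer cells of a type and less RNA per cell cannot be told apart.

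Trophectoderm genes, which mark the outer layer removed by immunosurgery, were also higher in ICM than in mESC. Of 17 measured, 15 were higher in ICM, none in mESC and 2 differed by less than 1, with a median of -2.77. Here 15 of the 17 passed the minimum only through ICM; over all 24 listed genes, 17 were higher in ICM and 1 in mESC, with a median of -2.03. Keratin 18 (Krt18) was 86.1 FPKM in ICM and 3.08 in mESC, and keratin 8 (Krt8, with a near-identical copy) 62.7 and 3.97. The water channels Aqp3 (40 and 0.733) and Aqp8 (99.3 and 0) and the tetraspanin Tspan8 (39.1 and 0) were also high in ICM. The defining factor Cdx2 was at 1.61 FPKM in ICM and listed at 0 in mESC. In 3 control libraries of whole injected blastocysts, from a table normalized separately, Krt18 was 1874 to 2534 FPKM, Gata3 79.6 to 132 and Cdx2 10.6 to 21.5, against 7.43 for Gata3 in ICM. Aqp8 went the other way, with 4 to 15.1 FPKM in those libraries. The summed level of the 7 defining trophectoderm markers was 204 FPKM in ICM and 8.39 in mESC, where Cdx2 and Elf5 were listed at 0. How much outer layer the ICM samples still held was not tested.

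**Figure D2:**
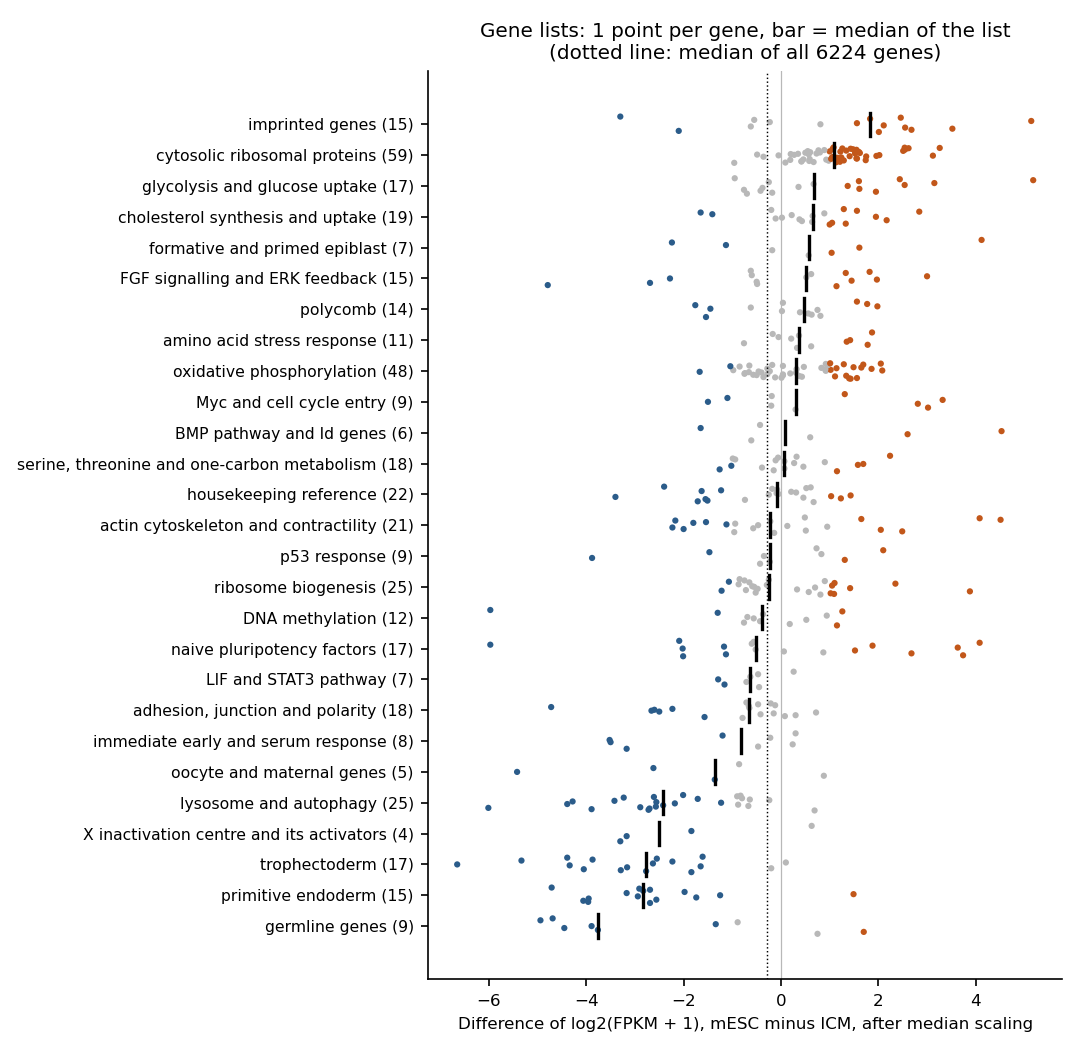
Each point is a gene with its difference of log2(FPKM + 1), mESC minus ICM after median scaling, on the x axis, for the 27 lists with 4 or more measured genes (number in brackets); black bars are medians. Germline, primitive endoderm, trophectoderm and lysosome genes lie to the left, and imprinted and ribosomal protein genes to the right of the dotted median of all genes.

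Genes of signalling pathways that act on these cells were divided. Among 15 measured genes of FGF signalling, which drives primitive endoderm in the ICM and exit from pluripotency in culture, 6 were higher in mESC and 3 in ICM, but 4 and 5 without scaling. The ligand Fgf4 was 7.89 FPKM in ICM and 13.4 in mESC (1.14, but 0.70 unscaled), and another ligand, Fgf10, 26.7 and 0. The receptor Fgfr2, found on primitive endoderm, was 5.72 and 0.0274 FPKM. Downstream, the target factor Etv4 (0.667 and 8.88) and the feedback inhibitors Spry4 (2.28 and 5.75) and Spred1 (1.5 and 6.34) were higher in mESC, whereas the phosphatase Dusp4 (6.93 and 0.457) was higher in ICM.

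LIF pathway genes did not lean towards the cells grown with LIF. Of 7 measured, none was higher in mESC and 2 were higher in ICM, near the share over all genes. As 6 of the 7 passed the minimum only through ICM, that count was partly set by the minimum. Over all 15 listed genes, 2 were higher in mESC and 2 in ICM. Those in mESC, both under the minimum, were Bcl3 (1.79 and 4.05) and Pim1 (1.4 and 2.79). Those in ICM were the shared receptor chain Il6st, 6.59 FPKM in ICM and 1.72 in mESC, and Stat3, 15.8 and 4.25. The receptor Lifr (7.11 and 3.55) and the feedback inhibitor Socs3 (8.59 and 3.73) differed by less than 1. In the BMP pathway the ligand gene Bmp4 was 30.2 FPKM in ICM and 14 in mESC. The target Id1, a helix-loop-helix inhibitor, was 0.959 FPKM in ICM and 31.9 in mESC (4.53), and the inhibitory Smad7 0.707 and 6.73. Id2 had the opposite order (23.8 and 4.98), and Id3 differed by less than 1 (138 and 73.5). Of 8 measured immediate early and serum response genes, 4 were higher in ICM and none in mESC. Those 4 were Fos (9.65 and 0.135), Ctgf (17.6 and 0.463), Cyr61 (20.4 and 0.627) and Dusp1 (11.1 and 3.07). They are among 6 of the 8 that passed the minimum only through ICM, so the count was partly set by the minimum. Over all 23 listed genes, 4 were higher in ICM and 1 in mESC, Jund (0.425 and 1.33), which was under the minimum.

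Cell cycle genes that drive or restrain entry into S phase differed one by one. Cyclin D1 (Ccnd1) was 2.22 FPKM in ICM and 15.6 in mESC, cyclin E1 (Ccne1) 4.3 and 37.5, and Mycn 4.61 and 32.2, while Myc was nearly level (14.9 and 13.4). Cyclin D3 (Ccnd3, with a near-identical copy) was 157 and 39.6 FPKM, and its order was the reverse. Of 9 measured genes of this list, 4 were higher in mESC and 2 in ICM, Ccnd3 and the kinase gene Cdk2 (64.5 and 21.3). The 4 were Ccnd1, Ccne1, Mycn and the inhibitor Cdkn1a (2.42 and 5.41, but 0.91 without scaling). These 4 passed the minimum only through mESC, so their order was favoured by the minimum. Over all 22 listed genes in the table, 8 were higher in mESC and 2 in ICM. In the p53 list, 2 of 9 measured genes were higher in each direction, near the shares over all genes. Pmaip1, a pro-apoptotic gene also called Noxa, had the largest gap, 23.2 FPKM in ICM and 0.467 in mESC.

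Chromatin regulators differed about as often as all genes, of which 45.5% did. Of 12 measured genes of DNA methylation, 2 were higher in mESC, the maintenance enzyme Dnmt1 (5.18 and 9.21 FPKM) and the repressor Trim28 (72.5 and 126), though neither without scaling (0.72 and 0.79). Besides Dppa3, the imprint guard Zfp57 was higher in ICM (57.2 and 16.4). The de novo enzyme Dnmt3b (9.99 and 8.23), its cofactor Dnmt3l (37.3 and 15.6), Uhrf1 (68.6 and 36.6, with a near-identical copy) and the oxidase Tet1 (16.1 and 17) differed by less than 1. Among 14 measured polycomb genes, 3 were higher in mESC, Pcgf6, Cbx7 and Rybp, and 3 in ICM, Bmi1, Ezh1 and Rbbp7. Rybp, Bmi1 and Rbbp7 have near-identical copies, and over the 11 genes without copies the counts were 2 and 1. The core subunits Ezh2 (23.4 and 30), Eed (91.2 and 102) and Suz12 (27.7 and 29.7) were close.

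Imprinted genes, which are expressed from 1 parental copy, leaned towards mESC. Of 15 measured, 9 were higher in mESC and 2 in ICM, with a median of 1.83 and a range over other settings of 0.30 to 2.01. However, 4 of the 15, Cd81, Mest, Impact and Meg3, passed the minimum only through mESC, and 2 only through ICM. Over all 45 listed genes, 13 were higher in mESC and 2 in ICM, and the median was 0.30. Cd81, a tetraspanin, was 1.35 FPKM in ICM and 59.1 in mESC, Phlda2 8.88 and 81.1, Mest 3.38 and 19.5, Impact 4.97 and 24.4, and the maternally expressed RNA Meg3 1.26 and 5.87. Snrpn, which has a near-identical copy, was 106 and 17.4 FPKM. The other imprinted gene higher in ICM was Xist, the RNA that coats the inactive X chromosome, at 19.8 FPKM in ICM and 0.796 in mESC. Its antisense partner Tsix was 38.8 and 2.48 FPKM, and since strand-specific counting is not stated, reads of this pair cannot be told apart. Rlim, the X-linked activator of Xist, was 41.9 and 7.94. The Y-linked genes Eif2s3y (0.146 and 20.9), Ddx3y (0.0255 and 2.81) and Uty (0 and 1.17) were higher in mESC, and Kdm5d, also Y-linked, was at 0.0107 and 0. The labels give no sex for either group.

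Some germline genes were far higher in ICM. Of 9 measured, 6 were higher in ICM and 1, Syce1, in mESC, with a median of -3.76, but 6 of the 9 passed the minimum only through ICM. Over all 22 listed genes in the table, 7 were higher in ICM and 4 in mESC, and the median was -0.02. Ddx4, an RNA helicase of germ cells (0.343 and 3.96), and the homeobox genes Rhox6 (0 and 4.21) and Rhox9 (0 and 3.54), all under the minimum, were higher in mESC. Tex19.1, a guard against retrotransposons, was 93.3 FPKM in ICM and 2.4 in mESC. Stk31 (44.9 and 1.72) and Asz1 (17.2 and 0.165) followed. Families related to cancer-testis genes, chosen after their values were seen, were at 5 FPKM or more in ICM in 6 of 11 Pramel and Pramef, 8 of 9 Xlr and 3 of 8 Magea genes. None reached 5 FPKM in mESC, so the order of the measured members was set by the minimum. Summed over all members, FPKM was 496 in ICM and 3.63 in mESC for Pramel and Pramef, 132 and 0.719 for Xlr and 73.7 and 0 for Magea. Among members under the minimum, Pramef25 had the larger value in mESC (0.0304 and 0.338). Most Xlr and Magea genes have near-identical copies, so only their sums are firm. Khdc3, a maternal-effect gene, was 611 FPKM in ICM and 9.59 in mESC, whereas its complex partner Ooep was 85.8 and 114.

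Genes of the lysosome and of autophagy, the routes by which cells digest their own components and cargo taken up, were lower in mESC. Of 25 measured, 17 were higher in ICM, none in mESC and 8 differed by less than 1, and 17 of the 25 were at 5 FPKM or more in both columns. The median was -2.42, its range over other settings -2.82 to -1.86, and 24 of 25 differences lay below 0. Cathepsin C (Ctsc) had the largest gap, with 128 FPKM in ICM and 0.729 in mESC. Other proteases were Ctsl (312 and 37.3), Ctsd (136 and 12.6), Ctsa (126 and 5.46) and Ctsb (53.7 and 5.33). The hexosaminidase subunit Hexa was 131 and 3.82 FPKM, prosaposin (Psap), which activates lipid hydrolases, 111 and 3.45, and the membrane proteins Cd63 403 and 26.6 and Lamp2 61 and 6.08. The autophagosome proteins Gabarapl2 (1783 and 136, with a near-identical copy) and Map1lc3b (662 and 77.6) were among the most abundant of the list. Lamp1 was the only member above 0 (34.1 and 40.2, difference 0.69). The proton pump that acidifies the lysosome is a family chosen after its values were seen. Of 15 measured genes, 6 were higher in ICM and 1 in mESC, against 27.6% and 17.9% over all genes. Their median was -0.59, against -0.29 over all genes. Those higher in ICM included Atp6ap2 (287 and 17) and Atp6v0b (142 and 24.6), while Atp6v1f (196 and 208) was level. Atp6v0c, counted in ICM, and its near-identical copy Atp6v0c-ps2, counted in mESC, have uncertain values.

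The E-box CACGTG, the core of the site bound by the lysosomal regulator TFEB, was sought on both strands in RefSeq promoters (GRCm38.p6, 250 bases before to 50 after the gene start). It was present in 8 of the 21 matched lysosome and autophagy genes (38.1%), in 13.6% of all matched genes of the comparison and in 8.09% of all promoters. Of the 8 genes with it, 4 were higher in ICM, against 10 of the 13 without it, Ctsc, Hexa and Psap among them. The promoters of 2 cathepsins are shown because they hold it more than once, with CACGTG in capitals. The Ctsa window is chr2:164833523-164833822 on the + strand and the Ctsd window chr7:142387778-142388077 on the - strand.
Ctsa: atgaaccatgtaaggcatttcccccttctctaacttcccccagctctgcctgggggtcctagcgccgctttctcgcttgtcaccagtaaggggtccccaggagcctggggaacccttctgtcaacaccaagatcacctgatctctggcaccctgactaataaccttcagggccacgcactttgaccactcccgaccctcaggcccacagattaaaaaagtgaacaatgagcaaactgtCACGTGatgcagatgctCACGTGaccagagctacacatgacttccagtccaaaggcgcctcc
Ctsd: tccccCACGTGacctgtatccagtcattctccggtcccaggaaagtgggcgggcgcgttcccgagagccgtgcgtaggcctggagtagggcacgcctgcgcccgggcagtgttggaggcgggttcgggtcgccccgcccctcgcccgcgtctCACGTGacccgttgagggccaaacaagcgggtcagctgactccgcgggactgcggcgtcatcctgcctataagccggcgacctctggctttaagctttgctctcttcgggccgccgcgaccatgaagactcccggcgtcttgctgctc

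Metabolic genes differed by enzyme more than by pathway. Of 17 measured genes of glycolysis and glucose uptake, 8 were higher in mESC and none in ICM. The list's median was 0.67, within the -0.33 to 0.98 seen for it between pairs of control libraries. It was 0.20 without scaling and -0.18 over the 9 genes without near-identical copies. Lactate dehydrogenase B (Ldhb) was 1.57 FPKM in ICM and 66.6 in mESC, Ldha 88.2 and 195, Pgk1 20.3 and 89 and Eno1 5.34 and 39.9, but all 4 have near-identical copies. Of those 9, Hk2 (5.56 and 17.6), Pfkp (5.6 and 13.9) and Pdk1, which holds pyruvate back from mitochondria (1.84 and 10.4), were higher in mESC. The glucose carriers Slc2a1 (31.1 and 13.5) and Slc2a3 (42.3 and 26.9) were not. Fbp2, a fructose bisphosphatase that runs against glycolysis, had the largest gap of all named genes towards ICM (708 and 0.93).

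Cholesterol synthesis showed 8 of 19 genes higher in mESC and 2 in ICM, with a median of 0.65, but only 4 higher in mESC without scaling. That median is within the -0.82 to 0.92 seen for this list between pairs of control libraries. Of the 19, 4 passed the minimum only through mESC, Cyp51 among them, and 2 only through ICM. Cyp51, a sterol demethylase, was 1.16 and 5.31 FPKM, whereas Dhcr7 (7.24 and 1.17) and Ebp (62.1 and 16.4) were higher in ICM. In one-carbon metabolism, 4 of 18 were higher in mESC, among them Psph (19 and 67.5) and Mthfd2 (21.2 and 51), and the threonine dehydrogenase Tdh, which has a near-identical copy, was 106 and 171 (1.15, but 0.68 unscaled). The share for this list was near that over all genes. Among 11 measured genes of the amino acid stress response, 4 were higher in mESC and none in ICM, against 17.9% and 27.6% over all genes. They were Nupr1 (18.8 and 51.2), Trib3 (2.99 and 9.15), Slc7a5 (2.26 and 5.57) and Chac1 (6.51 and 13.1, but 0.91 without scaling). Of the 11, 3 passed the minimum only through mESC, Trib3 and Slc7a5 among them, and none only through ICM. The median of the 11 was 0.37, within the -0.23 to 1.09 seen for this list between pairs of control libraries. Atf4, which regulates these genes, was level (128 and 117).

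Adhesion genes had 6 of 18 measured members higher in ICM, not far from the 27.6% over all genes, and none higher in mESC. Those higher in ICM were tight junction genes, Cldn7 (72.6 and 1.29), Cldn3 (8.06 and 0.359), Cldn4 (9.31 and 0.869), Ocln (5.01 and 0.0426) and F11r (42.4 and 4.24), and Epcam (69.4 and 16.4). These tight junction genes are among 8 of the 18 that passed the minimum only through ICM, so the count was partly set by the minimum. Over all 29 listed genes, 9 were higher in ICM and 1 in mESC, Tjp1 (1.63 and 3.61). E-cadherin (Cdh1, 42.3 and 17.3) differed by -0.79. In the actin list, thymosin beta 4 (Tmsb4x, 145 and 1789), S100a6 (3.45 and 72.4) and vimentin (Vim, 3.12 and 11.6) were higher in mESC. The tropomyosin Tpm1 (62.6 and 10.8), profilin 1 (Pfn1, 743 and 184) and Anxa2 (19.8 and 2.6) were higher in ICM, and Actb (1256 and 820) was level.

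Ribosomal protein genes were shifted towards mESC together. Of 59 measured, 34 were higher in mESC and none in ICM, with a median of 1.08, while without scaling 17 were higher in mESC, 1 in ICM, and the median was 0.61. Rps28 was 41.8 FPKM in ICM and 295 in mESC, Rpl38 66.2 and 421 and Rps27 77.7 and 347. All but 2 of the 59 have near-identical copies elsewhere in the genome, and those 2, of which Rpl8 was 679 and 656 FPKM, differed by less than 1. These transcripts are also short, with a median of 937 nt, and their median stood 0.64 above that of genes of the same length class. Of 25 genes of ribosome biogenesis, 7 were higher in mESC and 2 in ICM with scaling but 2 and 8 without it, with Nop10, a short protein of the H/ACA particle, furthest apart (160 and 1712).

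Transcript length went with the difference across the whole comparison. In the shortest of 10 length classes (619 genes, 109 to 1005 nt), 42.8% were higher in mESC and 15.7% in ICM, with a median of 0.77. In the next class the shares were 21% and 19.4%. From the third class on, 12.4% to 17.3% were higher in mESC and 22.3% to 35.5% in ICM. Leaving out genes with near-identical copies, ribosomal proteins and the respiratory chain, the shortest class still had 36.3% higher in mESC. Small RNA genes went furthest. Of 16 measured H/ACA snoRNA genes, chosen after their values were seen, 14 passed the minimum only through mESC, so that all 16 were higher in mESC was largely set by the minimum, and 13 were listed at 0 in ICM. Snora26 was listed at 0 in ICM and at 5831 FPKM in mESC, yet the C/D snoRNA gene Snord22 was 2011 in ICM and 108 in mESC. Most of these lie inside introns or exons of other genes, whose reads may be shared. Rn45s, the ribosomal RNA precursor, was at 2555 FPKM in mESC and listed at 0 in ICM, and also at 6967 in MII oocytes and 6829 in early 2-cell embryos but 0 in the other 4 embryo columns. The part of library preparation or of FPKM estimation in this pattern was not tested.

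**Figure D3:**
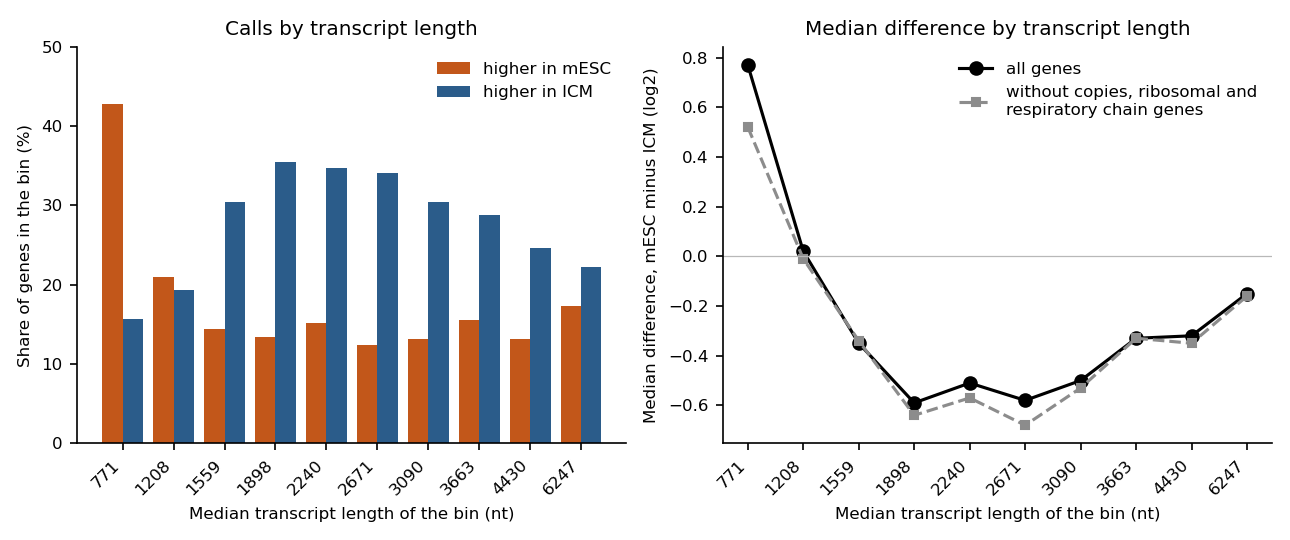
Genes are split into 10 classes of equal size by transcript length (x axis, median nt). Left, bars give the percentage at least 1 log2 unit higher in mESC or in ICM; right, lines give the median difference, for all genes and without copied, ribosomal protein and respiratory chain genes. The shortest class stands apart, with 42.8% higher in mESC and a median of 0.77.

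Apart from small RNA genes, those furthest towards mESC included neighbours on the X chromosome. Bex1 was 1.24 FPKM in ICM and 454 in mESC (8.14), Bex4 3.21 and 336 (with a near-identical copy), Tceal8 0.472 and 86.5, Wbp5 (now Tceal9) 11.3 and 301, Bex2 4.77 and 68.2 and Ngfrap1 (now Bex3) 23.9 and 169. These genes encode small adaptor and transcription elongation A-like proteins. All 6 measured members were higher in mESC, 4 of which passed the minimum only through mESC, and they lie within 205 kb (GRCm38.p6, RefSeq). The family was chosen after its values were seen, and Bex6, under the minimum, had the opposite order (1.72 and 0). Between them Tceal7 (0 and 1.15), Tceal5 (0.0715 and 0.156) and Nxf3 (0 and 0.0917) stayed under 5 FPKM. In embryos Bex1 was at 30.9 FPKM at the 2-cell stage and 77.6 at the 8-cell stage, and its ICM value was below both. Wbp5 and Tceal8 were at most 0.934 and 2.86 FPKM before the ICM.

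The 6 promoters are shown to compare what these neighbours share, from the lowest coordinate to the highest. Capitals mark GGGCGG, the GC box bound by Sp1, and CANGTGAC, a word noticed in these promoters that overlaps CACGTG where N is C, on either strand. GGGCGG is in all 6, in 68.9% of all matched genes of the comparison and in 38.2% of all promoters. CANGTGAC is in 5, all but Bex2, in 9.09% of the matched genes and in 7.32% of all promoters. As the word was picked from these same promoters, its count among them cannot be weighed against those shares. The windows are chrX:136068187-136068486 (Bex2, - strand), chrX:136138746-136139045 (Bex4, + strand), chrX:136172202-136172501 (Tceal8, - strand), chrX:136215464-136215763 (Bex1, - strand), chrX:136244830-136245129 (Tceal9, + strand) and chrX:136270003-136270302 (Bex3, + strand). The Bex1 and Bex4 windows are the same at 288 of 294 aligned bases (98%), and those of Bex2 and Bex3 at 223 of 263 (84.8%).
Bex2: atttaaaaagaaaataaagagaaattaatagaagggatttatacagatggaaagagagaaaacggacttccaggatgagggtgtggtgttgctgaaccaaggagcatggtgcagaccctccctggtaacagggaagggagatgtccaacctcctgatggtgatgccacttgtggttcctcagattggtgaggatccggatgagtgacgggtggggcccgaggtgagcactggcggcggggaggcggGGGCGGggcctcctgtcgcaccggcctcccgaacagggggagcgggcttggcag
Bex4: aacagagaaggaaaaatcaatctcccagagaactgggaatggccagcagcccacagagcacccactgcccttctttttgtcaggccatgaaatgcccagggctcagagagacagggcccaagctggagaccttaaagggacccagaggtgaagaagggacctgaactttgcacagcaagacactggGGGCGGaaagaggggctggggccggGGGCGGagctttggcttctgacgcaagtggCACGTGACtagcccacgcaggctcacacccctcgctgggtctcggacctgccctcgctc
Tceal8: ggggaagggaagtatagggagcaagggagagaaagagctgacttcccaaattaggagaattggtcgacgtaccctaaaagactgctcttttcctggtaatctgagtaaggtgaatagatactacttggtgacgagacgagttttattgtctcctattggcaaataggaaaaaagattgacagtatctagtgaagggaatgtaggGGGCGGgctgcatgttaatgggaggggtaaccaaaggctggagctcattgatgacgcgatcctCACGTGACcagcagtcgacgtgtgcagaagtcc
Bex1: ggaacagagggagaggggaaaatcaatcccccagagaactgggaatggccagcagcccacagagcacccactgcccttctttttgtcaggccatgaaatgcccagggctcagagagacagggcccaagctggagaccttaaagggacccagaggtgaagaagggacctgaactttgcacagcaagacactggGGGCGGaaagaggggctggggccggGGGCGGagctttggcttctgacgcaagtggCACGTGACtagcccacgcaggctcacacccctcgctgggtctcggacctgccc
Tceal9: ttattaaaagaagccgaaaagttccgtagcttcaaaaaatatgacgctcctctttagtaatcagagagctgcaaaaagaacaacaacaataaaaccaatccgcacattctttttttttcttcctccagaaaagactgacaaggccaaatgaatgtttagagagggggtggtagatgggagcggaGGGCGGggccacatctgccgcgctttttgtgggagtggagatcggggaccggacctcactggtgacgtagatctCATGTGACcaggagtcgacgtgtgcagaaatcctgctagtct
Bex3: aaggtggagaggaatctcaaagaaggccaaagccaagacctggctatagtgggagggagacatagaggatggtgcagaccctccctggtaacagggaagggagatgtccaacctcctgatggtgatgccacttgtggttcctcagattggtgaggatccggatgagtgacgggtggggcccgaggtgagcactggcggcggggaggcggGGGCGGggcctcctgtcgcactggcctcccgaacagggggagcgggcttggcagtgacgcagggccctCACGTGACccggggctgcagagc

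Other genes of the 15 furthest towards mESC, small RNA genes and unnamed loci left out, had varied roles. Stmn2, a tubulin-binding protein of neurons, was 0.705 FPKM in ICM and 218 in mESC and at most 0.0265 at every earlier embryo stage. Ifitm1, an interferon-induced membrane protein of early germ cells with a near-identical copy, was 9.81 and 413, Gng3, a G protein subunit, 1.1 and 39.7, and Pcolce, a collagen-processing enhancer, 0 and 19.6. Tmsb15b1 (0.535 and 54) and Hist1h2af (6.02 and 135) have near-identical copies, and Snhg9 (32.2 and 633) is a snoRNA host. Amd1 and Amd2, near-identical genes for the polyamine enzyme S-adenosylmethionine decarboxylase, had opposite values: Amd1 0.0205 in ICM and 35.9 in mESC, Amd2 36.8 and 0.143. Their sums were 36.8 and 36.1 FPKM. Atp6v0c (455 and 6.5) and its copy Atp6v0c-ps2 (5.83 and 60) also had opposite orders, so values of single members of such pairs are uncertain.

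By the same rule, the 15 genes furthest towards ICM were led by Fbp2, at -8.27. Crxos, a homeobox gene of early embryos that shares sequence with another transcript, was 620 FPKM in ICM and 1.91 in mESC. Pramel6 was 252 and 0.475, and Pramel7, a factor that lowers DNA methylation in the ICM, 102 and 0. Ube2l6, the conjugating enzyme of the interferon-induced ISG15 system, was 176 and 0.322, Havcr1, a receptor for dying cells, 83.7 and 0.0763, and Bhmt, a betaine methyltransferase of the embryo with a near-identical copy, 189 and 0.681. The lens crystallins Crygc (68.9 and 0) and Crygd (76.3 and 0.146) were high, as were Ceacam10 (61.8 and 0), Trim43a (158 and 0.467, with near-identical copies) and Calcoco2, an autophagy receptor (719 and 7.69, with a near-identical copy).

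Most genes higher in ICM, like most genes compared, were already present in the cleavage embryo. Of the 1716, 1198 (69.8%) were at 5 FPKM or more in 8-cell embryos, against 608 of the 1117 higher in mESC (54.4%) and 72.9% of all genes compared. Ctsc was at 851 FPKM in 8-cell embryos, Crxos at 1602 and Trim43a at 546, above their ICM values. Aqp8, Crygc and Crygd were under 1 FPKM at every stage before. Of the 1117 genes higher in mESC, 213 were under 1 FPKM in 8-cell embryos and 40 (3.58%) under 1 FPKM in all 7 embryo columns. Among these 40 were Stmn2, Pcolce, the activin subunit Inhbb (18 FPKM in mESC), the retinoid-binding Crabp1 (14.4), Tcf15, Etv4 and Calca (9.41). Gng3 and Ldhb were high in oocytes (153 and 419 FPKM), low in ICM and higher again in mESC.

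**Figure D4:**
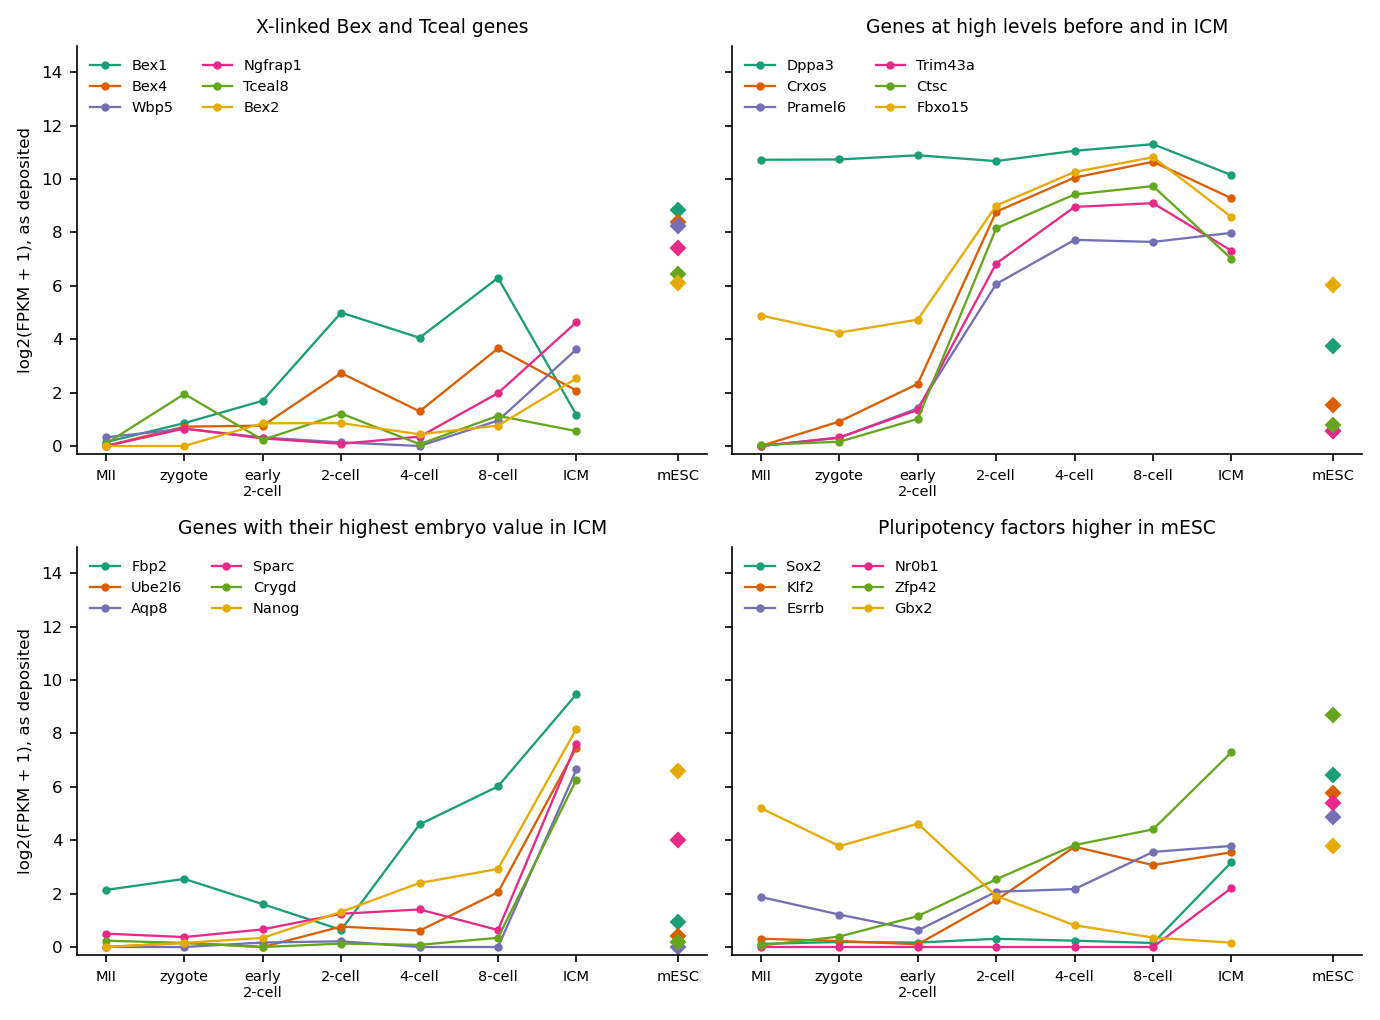
Lines give log2(FPKM + 1) as deposited over the 7 embryo columns, 1 value each, and diamonds the value in mESC, for 4 groups of genes. Crxos, Trim43a and Ctsc are high from the 2-cell stage to the ICM and low in mESC, Aqp8 and Crygd appear in ICM, and Sox2 and Nr0b1 appear in ICM and are higher in mESC.

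By chromosome (RefSeq gene table, 6203 genes matched), the median difference was highest on chromosome 8 and lowest on X, leaving aside Y with 1 gene. Of 352 genes on chromosome 8, 23.3% were higher in mESC and 15.1% in ICM, with a median of 0.15. Over its 249 genes at 5 FPKM or more in both columns the median was 0.36, and it was 0.14 to 0.41 in each of 6 parts along the chromosome. On the other autosomes that median was -0.32 to 0.27. Against the oocyte and cleavage columns, the median of chromosome 8 was 0.03 to 0.11 in mESC and -0.17 to 0.01 in ICM, both within the -0.22 to 0.12 seen between the columns before the ICM. Extra copies of chromosome 8 are a known change of cultured mouse ES cells, but copy number was not measured here. On X, 39.8% of 231 genes were higher in ICM and 19.5% in mESC, with a median of -0.68. Over the 117 X-linked genes at 5 FPKM or more in both columns the median was -0.33, and in 6 parts along X it was -1.15 in the first and -0.35 to 0.01 in the others.

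**Figure D5:**
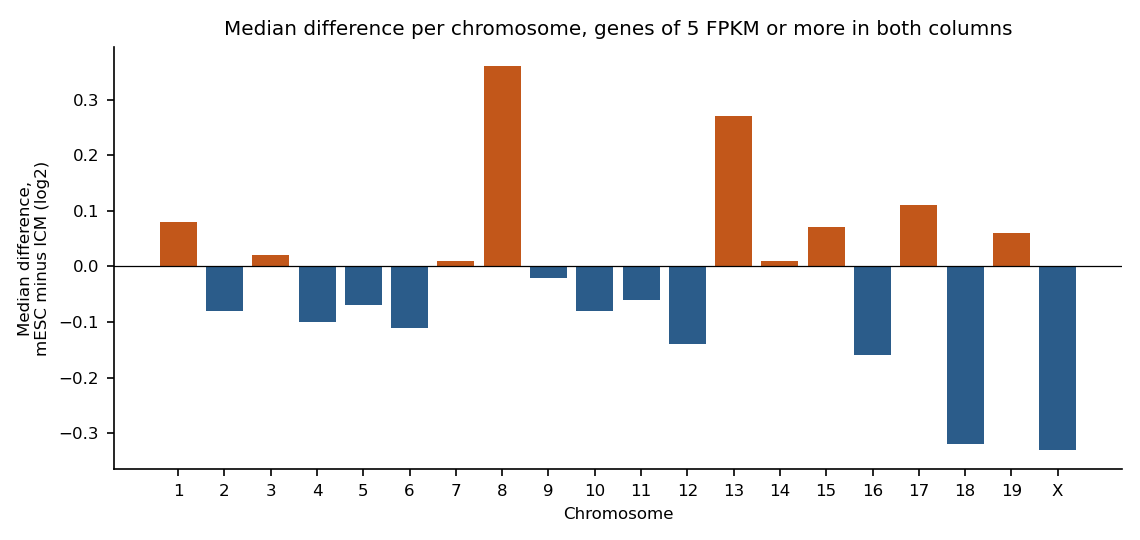
Bars give the median difference of log2(FPKM + 1), mESC minus ICM after median scaling, per chromosome over genes at 5 FPKM or more in both columns. Chromosome 8 is highest at 0.36 and chromosome X lowest at -0.33, next to chromosome 18 at -0.32.

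The promoters of the classes were alike in base composition. Among the 896 matched genes higher in mESC, the 1374 higher in ICM and the 2769 others, median GC was 60.7%, 60% and 60.3%, and GGGCGG was in 70.2%, 66.4% and 69.8%. The octamer ATGCAAAT was in 1.9%, 1.75% and 1.23%, and the GATA word AGATAA in 6.81%, 9.53% and 6.86%. Over all promoters these words were in 38.2%, 1.97% and 12.7%.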

How the data were processed

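RNA of 3 ICM and 2 mESC samples was analysed as 1 deposited FPKM value per gene and group. The tools CASAVA 1.8, STAR 2.4.0 and Cufflinks 2.2.1 and the build mm9 are named, with no order or role, in the submitters' processing notes. How the samples of a group became 1 column, and the strandedness, are not given in the sources used here. Genes with 5 FPKM or more in either column were kept, the mESC column was scaled to a median log2 ratio of 0, and differences of log2(FPKM + 1) were taken with Python 3.11.15. No test was possible. Near-identical copies were sought with blastn 2.17.0 of each coding sequence, or of the whole transcript of a noncoding gene, against GENCODE M21 transcripts (95% identity over 50% of the length), so a match can also be an overlapping transcript or a host gene. Transcript length is that of the longest coding transcript in GENCODE M21, or of the longest transcript of a gene without one, matched by name for 6190 genes. Gene names, chromosomes and promoters came from RefSeq on GRCm38.p6, and no mm9 coordinate was used. The script was checked on simulated columns.

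The comparison and the gene lists were chosen with earlier results of these data known. The rule for named genes took the 15 largest differences each way, passing over small RNA genes (Mir and Snor names) and unnamed loci (Gm, Rik, LOC and clone names), any member of the pluripotency, epiblast, DNA methylation, primitive endoderm and trophectoderm lists, and up to 6 or an example from each other list. The list of 2-cell-like genes had 2 measured genes, of which 1 was higher in ICM. Over all 17 listed genes in the table, 6 were higher in mESC and 1 in ICM. Those 6, such as Zscan4c (0.00916 and 3.8) and Zscan4f (0.0117 and 4.26), were all under the minimum. The oxidative phosphorylation list had 15 of 48 higher in mESC and 2 in ICM, but 7 and 9 without scaling. The housekeeping list had 3 of 22 higher in mESC and 7 in ICM, and 0 and 8 without scaling. The oocyte list had 3 of 5 higher in ICM. No gene of the fibroblast list was measured. Some genes are not reported here.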

Additional observations from a re-analysis of the deposited data

How the results depend on the processing

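The count of genes higher in mESC, 1117, moved to 725 without scaling, to 1789 with a minimum of 1 FPKM and to 1853 with no minimum, the last 2 of which admit more genes. Under the other 9 settings it was 780 to 1268, and the count of genes higher in ICM, 1716, was 1161 to 2527 over all 12. Scaling to the same total FPKM gave 780 and 2385. Without genes that have near-identical copies the counts were 865 and 1392 of 5150 genes, and scaled within 10 classes of transcript length 1051 and 1621; these 2 settings and a minimum applied after scaling (1268 and 1716) were chosen after seeing the data. Over the settings the median of all genes went from -0.72 (unscaled) to -0.14 (quantile normalization). Of 184 named genes that differed by 1 log2 unit or more, 175 kept that much without scaling and 163 with a pseudocount of 5. Another minimum, pseudocount or single scaling factor could not reverse the sign of such genes, so those settings do not test it. Under quantile normalization and under scaling within length classes, which are free of that limit, none changed sign. List medians changed sign in at least 1 setting for FGF signalling (-0.50 to 0.82), glycolysis (-0.11 to 1.02), oxidative phosphorylation (-0.15 to 0.40), DNA methylation (-0.82 to 0.23), amino acid stress (-0.09 to 0.54), BMP (-0.52 to 0.64), Myc and cell cycle (-0.14 to 0.99), ribosome biogenesis (-0.71 to 0.04), one-carbon (-0.40 to 0.23), p53 (-0.66 to 0.18), formative (-0.18 to 0.87), housekeeping (-0.55 to 0.13) and 2-cell-like genes (-1.25 to 2.33); the lysosome, primitive endoderm, trophectoderm, ribosomal protein and imprinted lists kept theirs, as did the germline list, at -0.02 with no minimum. The share of genes 1 log2 unit apart between control libraries was 7.02% to 15.3% and, unscaled, 7.8% to 33.5%.

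No paired analysis was possible because each group has 1 deposited value per gene, and for the same reason no replicate was left out. The mESC column is the shallower one, so its low values are the less certain.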

Other observations

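Some genes with large gaps fall in none of the lists and were chosen after their values were seen. Higher in mESC were Hes1, a Notch target (0.506 FPKM in ICM and 25.8 in mESC), the metallothioneins Mt1 (182 and 1207) and Mt2 (150 and 858), and Fgf15 (0.0356 and 5.47). Mt1 and Mt2 had also been high in 8-cell embryos (1292 and 755), so ICM had the lowest value of these 3 columns. Crip1 (9.55 and 183), Nqo1 (2.51 and 24) and Gclm (1.43 and 24.3), the last 2 being antioxidant enzymes, had the same order.

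Higher in ICM were Plin2, which coats lipid droplets (219 and 2.64), Acadl, an enzyme of fatty acid oxidation (120 and 3.64), the transcription factor Spic (160 and 1.91), the gap junction protein Gja1 (233 and 8.15), the alkaline phosphatase Alpl (109 and 3.84) and Sat1, which breaks down polyamines (774 and 42.4). The lysosomal genes Smpd1 (32.3 and 0.979), Creg1 (62.7 and 2.12) and Acp5 (36 and 0.422), outside the list above, were also higher in ICM.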
